A study of Mus musculus with 21 samples.

Results

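The expression of 9 genes of MHC class II presentation was followed through 3 blood progenitor populations in wild-type mice and in Etv6 mutant homozygotes. The genes were chosen by name, as rows of the deposited expression table: Cd74, H2-Aa, H2-Ab1, H2-Eb1, Ciita, H2-DMa, H2-DMb1, H2-Oa and Ctss. All 9 of the 9 listed were found among the 11628 genes of the table, and all 9 passed the filter on low values that left 11496 genes.

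Etv6 is an ETS-family repressor of transcription. The mutation, given as h.P214L and called germline by the submitters, was homozygous in mutants (genotype ETV6 mt/mt). The submitters count 3 wild-type and 4 mutant mice, but label mutant library 4 as 10 weeks old in CLP and 12 weeks in HSC and MPP4. Bone marrow was sorted by flow cytometry into 3 populations. Haematopoietic stem cells (HSC) were lineage-negative cells positive for cKit, Sca1 and CD150 and negative for FLK2 and CD38. The gate for multipotent progenitors (MPP4) took lineage-negative cells with cKit, Sca1 and FLK2. That for common lymphoid progenitors (CLP) took lineage-negative cells with low cKit and low Sca1 that were IL7+ and Flk2+. Each of the 6 groups of genotype and population held 3 wild-type or 4 mutant libraries. Mice were 10 or 12 weeks old, and each group held libraries from both sexes. Library 2 of each group was labelled male and the others female. Because the mutation is germline, effects within the sorted cells and effects of other cells cannot be told apart. Whether libraries of different populations came from the same mouse is not labelled, and p-values measure the spread between these libraries. The summed level of 4 stem cell markers was 122 to 174 RPKM in the HSC libraries, 23.8 to 61.8 in MPP4 and 1.24 to 5.72 in CLP. That of 4 early lymphoid markers was 2.38 to 11.8, 501 to 1113 and 1953 to 2961 RPKM in the same order. In MPP4 the genotypes did not overlap in either sum: stem cell markers were 50.0 to 61.8 RPKM in the mutant and 23.8 to 33.6 in wild type, and early lymphoid markers 501 to 611 and 809 to 1113.

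MHC class II molecules are surface pairs of an alpha and a beta chain that show peptides from the endosomes to CD4 T cells. In the endoplasmic reticulum the pair assembles on the invariant chain, CD74, which blocks the groove and steers the complex to late endosomes. There cathepsin S cuts the invariant chain down to a short remnant, H2-M exchanges that remnant for peptide, and H2-O restrains H2-M. The coactivator CIITA drives these genes through a complex of RFX, CREB and NF-Y proteins bound to conserved X and Y boxes in their promoters. Dendritic cells, macrophages and B cells express the pathway constitutively, and interferon gamma induces CIITA in many other cells.

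The promoters of 5 class II genes are shown because the same pair of boxes stands in genes that moved together between libraries and in genes that did not. Each is the 110 bases before the RefSeq start on GRCm38.p6, written 5′ to 3′ on the gene's strand. Capitals mark a match to CNNGNAAC, the start of the X box, and to GATTGG, the Y box.
H2-Aa, alpha chain of I-A, chr17:34287824-34287933, minus strand: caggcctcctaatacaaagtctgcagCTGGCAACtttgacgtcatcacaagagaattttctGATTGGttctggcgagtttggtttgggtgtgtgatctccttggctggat
H2-Eb1, beta chain of I-E, chr17:34305757-34305866, plus strand: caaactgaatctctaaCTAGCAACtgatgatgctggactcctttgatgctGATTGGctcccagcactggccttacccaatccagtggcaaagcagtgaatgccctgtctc
H2-DMb1, beta chain of H2-M, chr17:34153081-34153190, plus strand: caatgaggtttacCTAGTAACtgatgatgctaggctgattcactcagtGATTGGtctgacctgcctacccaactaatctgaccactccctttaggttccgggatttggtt
H2-Oa, alpha chain of H2-O, chr17:34092269-34092378, plus strand: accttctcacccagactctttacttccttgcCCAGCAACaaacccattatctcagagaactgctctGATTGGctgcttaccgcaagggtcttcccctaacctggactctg
H2-Ob, beta chain of H2-O and no member of the 9, chr17:34238795-34238904, plus strand: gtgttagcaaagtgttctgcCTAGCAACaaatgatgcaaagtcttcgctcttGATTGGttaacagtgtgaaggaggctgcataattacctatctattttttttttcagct

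In these promoters the CNNGNAAC match began at -84 (H2-Aa), -94 (H2-Eb1), -97 (H2-DMb1), -79 (H2-Oa) and -90 (H2-Ob), counted from the start. The GATTGG match began 32 to 35 bases further on, at -49, -60, -62, -44 and -58. Of 32544 RefSeq promoters, searched on both strands over the 250 bases before the start, 33.5% held CNNGNAAC and 14.5% held GATTGG. The arrangement, with starts 30 to 37 bases apart, stood in 27 promoters or 0.083%, of which 6 belong to class II genes: the 5 shown and H2-Eb2. The letters and the spacing were set after these promoters had been read, so the share is a description. H2-DMa, with 2 annotated starts, H2-DMb2 and Ctss had no match of this arrangement in that window. H2-Ab1 and Ciita were matched to no promoter entry. Cd74 was not looked up by name, so whether it is among the 27 is not given.

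The genes span a wide range of levels. Values are RPKM, read counts scaled by transcript length and library size, so genes can be compared per length. In wild-type HSC, means were highest for Cd74 (108 RPKM), H2-DMa (93.5), H2-Ab1 (57.7), H2-DMb1 (47.8) and H2-Aa (40.3). They were lower for H2-Eb1 (13.8), Ctss (9.53), H2-Oa (8.91) and Ciita (1.38). Changes are differences of mean log2(RPKM + 1), which understates change in genes near 1 RPKM such as Ciita. They were tested with limma over all 21 libraries and called where the p adjusted over all 11496 genes (Benjamini-Hochberg) was below 0.05. Sequencing depth is unknown, RPKM summed to 337818 to 376135 per library, and 2 to 90 genes stood at 0. In bulk RNA, more cells of a type and more transcript per cell cannot be told apart.

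**Figure D1:**
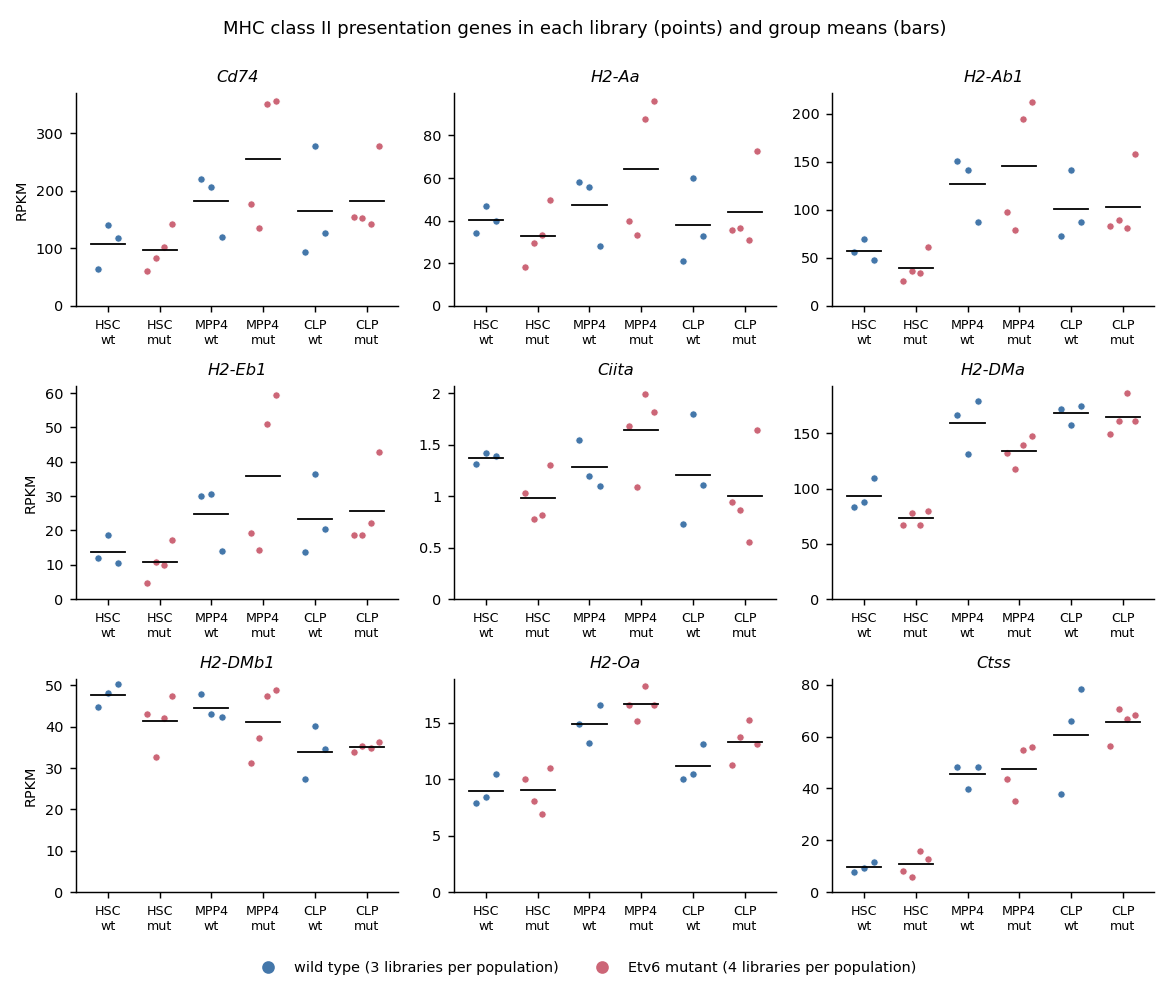
RPKM of the 9 class II presentation genes (linear axes from 0) in each of the 21 libraries, by population and genotype; points are libraries and black bars are group means. The 4 points of a mutant group spread widely for Cd74, H2-Aa, H2-Ab1 and H2-Eb1 (Cd74 136 to 355 RPKM in mutant MPP4) and tightly for H2-DMa, while Ctss separates HSC from the other populations.

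Cd74, the invariant chain, was the most abundant of the 9 in 5 of the 6 groups and was called higher in MPP4 and CLP than in HSC in the mutant. Wild-type libraries 1, 2 and 3 stood at 64.4, 140 and 119 RPKM in HSC, at 221, 206 and 119 in MPP4, and at 92.8, 277 and 126 in CLP. Mutant libraries 1 to 4 stood at 60.8, 82.4, 102 and 141 in HSC, at 176, 136, 350 and 355 in MPP4, and at 155, 152, 142 and 278 in CLP. HSC and MPP4 overlapped in both genotypes, and library 2 was the high one of wild-type CLP. In the mutant, Cd74 was 2.52-fold higher in MPP4 than in HSC (log2 change 1.33, SE 0.370, limma adjusted p = 0.00699) and 1.89-fold higher in CLP (0.92, adjusted p = 0.0402). The call in CLP was lost without mutant CLP library 1 or 4 or mutant HSC library 1, 2 or 3 (adjusted p = 0.0501 to 0.136), and with quantile normalization (0.77, adjusted p = 0.0873) or library weights (0.87, adjusted p = 0.0598). In wild type the MPP4 to HSC change was 0.77 (adjusted p = 0.162), and the difference between genotypes in this change was 0.56 (95% interval -0.62 to 1.74, adjusted p = 1.00).

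H2-Ab1, the beta chain of I-A, was called higher in MPP4 than in HSC in both genotypes. H2-Ab1 (chromosome 17, 34263227 to 34269418) stood at 55.9, 69.7 and 47.4 RPKM in the wild-type HSC libraries and at 151, 141 and 87.5 in those of MPP4. The 3 wild-type MPP4 libraries all lay above the 3 of HSC, a 2.14-fold difference (log2 change 1.10, SE 0.368, limma adjusted p = 0.0223). That call was lost without HSC library 1 or 3 or MPP4 library 1 or 2 (adjusted p = 0.0503 to 0.0852). Mutant HSC libraries stood at 25.8, 36.5, 33.9 and 61.8 RPKM and mutant MPP4 libraries at 97.3, 78.9, 195 and 212, again without overlap. In the mutant the rise from HSC was 3.49-fold to MPP4 (1.80, adjusted p = 0.00013) and 2.59-fold to CLP (1.37, adjusted p = 0.000984). In wild type the CLP to HSC change of H2-Ab1 was 0.75 (adjusted p = 0.0942), and called with a replicate block (adjusted p = 0.0287 with the number as a term and 0.0394 by mouse) or with only the compared groups (0.0307). H2-Ab1 in CLP was 101 ± 36.4 RPKM in wild type (SD, n = 3) and 103 ± 36.9 in the mutant (n = 4).

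H2-Aa (chromosome 17, 34282744 to 34287823), the alpha chain of the same pair, was not called between any populations. Its means over HSC, MPP4 and CLP were 40.3 ± 6.405, 47.5 ± 16.6 and 38.0 ± 20.0 RPKM in wild type (SD, n = 3 each). In the mutant they were 32.7 ± 13.0, 64.2 ± 32.2 and 43.9 ± 19.4 (n = 4 each). The mutant MPP4 to HSC change was 0.89 on the log2 scale (limma adjusted p = 0.0667). Without mutant HSC library 4, or mutant MPP4 library 1 or 2, or with library weights, it was called (adjusted p = 0.0256 to 0.0453). With a replicate block it was also called (adjusted p = 0.0211 with the number as a term and 0.0267 by mouse). The ratio of H2-Ab1 to H2-Aa within a library was 1.19 to 1.64 in wild-type HSC and 2.53 to 3.09 in wild-type MPP4. In the mutant it was 1.01 to 1.42 in HSC and 2.21 to 2.44 in MPP4. The ratios of HSC and MPP4 therefore did not overlap in either genotype, and in CLP they were 2.36 to 3.46 in wild type and 2.17 to 2.65 in the mutant.

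H2-Eb1 (chromosome 17, 34305867 to 34316674), the beta chain of I-E, was the least abundant of the surface chains. It stood at 12.0, 18.8 and 10.6 RPKM in the wild-type HSC libraries, at 29.99, 30.7 and 14.1 in MPP4 and at 13.6, 36.4 and 20.3 in CLP. Mutant libraries stood at 4.82, 10.9, 10.0 and 17.2 RPKM in HSC, at 19.1, 14.2, 51.1 and 59.3 in MPP4 and at 18.7, 18.6, 22.0 and 43.0 in CLP. HSC and MPP4 overlapped in both genotypes. In the mutant, H2-Eb1 was 2.88-fold higher in MPP4 than in HSC (1.53, SE 0.432, limma adjusted p = 0.00793) and 2.30-fold higher in CLP (log2 change 1.205, adjusted p = 0.0221). The call in CLP was lost without mutant CLP library 4 or mutant HSC library 1 (adjusted p = 0.0841 and 0.0919). The wild-type changes were 0.77 and 0.66 (adjusted p = 0.234 and 0.286).

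Ciita (chromosome 16, 10480014 to 10531064), the coactivator of the pathway, lay close to 1 RPKM throughout. Group means ran from 0.982 RPKM in mutant HSC to 1.65 in mutant MPP4, and single libraries from 0.553 in mutant CLP to 1.999 in mutant MPP4. No change of Ciita between populations was called in the fit of group means. The largest in the mutant were 0.41 from HSC to MPP4 (SE 0.169, limma adjusted p = 0.0608) and -0.42 from MPP4 to CLP (adjusted p = 0.0809). With a replicate block the first was called (adjusted p = 0.0452 with the number as a term and 0.033 by mouse). With quantile normalization the first of these was 0.64 and called (adjusted p = 0.00176), and the CLP to HSC change of the mutant turned from -0.01 to 0.58 and was called (adjusted p = 0.00229). The mutant change from HSC to MPP4 was also called with library weights (limma adjusted p = 0.0337). Leaving out library 4 of mutant CLP or HSC, or library 2 of mutant MPP4 or wild-type CLP, also called it. The limma adjusted p was then 0.0267 to 0.0452. The mutant change from MPP4 to CLP was called without CLP library 4 or MPP4 library 2 (adjusted p = 0.0161 and 0.0375). At this level Ciita's calls between populations depend on the scaling, the model and single libraries.

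The genes of the peptide loading complexes split by chain. H2-DMa, the alpha chain of H2-M (chromosome 17, 34119693 to 34139101), rose from HSC to MPP4 and CLP in both genotypes. Wild-type libraries stood at 83.0, 88.3 and 109 RPKM in HSC, at 167, 131 and 180 in MPP4 and at 172, 158 and 175 in CLP. All 3 libraries of MPP4 and of CLP lay above all 3 of HSC. The rise was 1.69-fold to MPP4 (0.76, SE 0.122, limma adjusted p = 4.94e-05) and 1.80-fold to CLP (0.85, adjusted p = 7.1e-06). Mutant libraries stood at 67.4, 78.0, 67.4 and 79.5 RPKM in HSC, at 133, 118, 140 and 147 in MPP4 and at 149, 162, 187 and 161 in CLP. The mutant rises were 1.83-fold (0.87, adjusted p = 1.43e-06) and 2.24-fold (1.16, adjusted p = 1.01e-08). MPP4 and CLP differed by 0.09 in wild type and 0.29 in the mutant (adjusted p = 0.716 and 0.0506). The mutant difference was called under 12 of 32 alternatives (lowest adjusted p = 0.0132).

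H2-DMb1, a beta chain of H2-M (chromosome 17, 34153191 to 34160229), did not rise with H2-DMa. Its means were 47.8 ± 2.83, 44.4 ± 2.96 and 34.0 ± 6.41 RPKM over wild-type HSC, MPP4 and CLP (SD, n = 3 each), and 41.4 ± 6.19, 41.2 ± 8.43 and 35.1 ± 0.922 in the mutant (n = 4 each). In wild type H2-DMb1 fell by 0.49 from HSC to CLP on the log2 scale (SE 0.152, limma adjusted p = 0.0102), a call lost without CLP library 1 (adjusted p = 0.0773). The mutant change was -0.22 (adjusted p = 0.164), and called without HSC library 2 (adjusted p = 0.0435). The ratio of H2-DMb1 to H2-DMa within a library was 0.420 to 0.638 in the HSC libraries of both genotypes and 0.158 to 0.254 in those of CLP. H2-DMb2, the neighbouring beta chain gene (chromosome 17, 34143229 to 34151553), rose in both genotypes. Its means over HSC, MPP4 and CLP were 4.17 ± 1.35, 14.3 ± 3.11 and 19.2 ± 3.04 RPKM in wild type and 4.12 ± 0.839, 11.6 ± 2.78 and 17.6 ± 1.30 in the mutant. H2-DMb2 was 2.99-fold higher in wild-type MPP4 than in HSC (1.58, adjusted p = 5.04e-06) and 3.98-fold higher in CLP (1.99, adjusted p = 1.18e-07). H2-DMb1 and H2-DMb2 are close copies, and how reads shared by them were counted was not stated, so the split between them is uncertain.

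H2-Oa, the alpha chain of the inhibitor H2-O (chromosome 17, 34092379 to 34095234), had its highest mean in MPP4 in both genotypes. Wild-type libraries stood at 7.86, 8.43 and 10.5 RPKM in HSC, at 14.9, 13.2 and 16.6 in MPP4 and at 10.0, 10.4 and 13.1 in CLP. Mutant libraries stood at 10.0, 8.07, 6.96 and 10.96 in HSC, at 16.6, 15.1, 18.3 and 16.6 in MPP4 and at 11.2, 13.7, 15.3 and 13.2 in CLP. MPP4 lay above HSC without overlap in both genotypes, 1.605-fold in wild type (0.68, SE 0.150, limma adjusted p = 0.00115) and 1.78-fold in the mutant (0.83, adjusted p = 3.28e-05). CLP against HSC was called in the mutant (0.53, adjusted p = 0.00162). In wild type it was 0.30 (adjusted p = 0.106), and called with quantile normalization, median-ratio scaling, library weights or without HSC library 3 (adjusted p = 0.0156 to 0.0462).

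H2-Ob, the beta chain that pairs with H2-Oa (chromosome 17, 34238905 to 34245908), rose from HSC to MPP4 and again to CLP. H2-Ob stood at 5.46, 5.39 and 3.83 RPKM in wild-type HSC, at 58.9, 52.8 and 75.7 in MPP4 and at 116, 100 and 119 in CLP. Mutant libraries stood at 3.38, 3.17, 4.10 and 3.94 in HSC, at 37.03, 46.9, 50.6 and 53.4 in MPP4 and at 79.1, 95.6, 108 and 89.4 in CLP. The 3 populations did not overlap in either genotype. In wild type the rise was 10.7-fold from HSC to MPP4 (3.43, SE 0.153, limma adjusted p = 9.09e-13) and 1.79-fold from MPP4 to CLP (0.84, adjusted p = 0.000635). The ratio of H2-Ob to H2-Oa within a library went from 0.337 to 0.695 over the 7 HSC libraries to 2.23 to 4.57 in MPP4 and 6.80 to 11.6 in CLP. H2-Oa was thus the more abundant of the H2-O chains per length in all 7 HSC libraries, and H2-Ob in all 14 libraries of MPP4 and CLP. The genotypes did not overlap in the H2-Ob to H2-Oa ratio in MPP4 (3.96 to 4.57 in wild type, 2.23 to 3.22 in the mutant). In CLP they did not either (9.03 to 11.6 and 6.80 to 7.06), and neither difference was tested. In MPP4 they also did not overlap in the ratio of H2-Ab1 to H2-Aa given above. Nor did they in that of Cd74 to H2-Ab1, at 1.36 to 1.46 in wild type and 1.67 to 1.81 in the mutant. The ratios of H2-DMb1 to H2-DMa and of H2-DMb2 to H2-DMb1 overlapped there. In HSC each of these ratios overlapped between genotypes, for H2-Ob to H2-Oa at 0.366 to 0.695 in wild type and 0.337 to 0.590 in the mutant. In CLP all but that of H2-Ob to H2-Oa overlapped. Of single genes, 10.1% did not overlap in MPP4 and 4.12% in CLP, and the share among ratios was not computed.

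**Figure D2:**
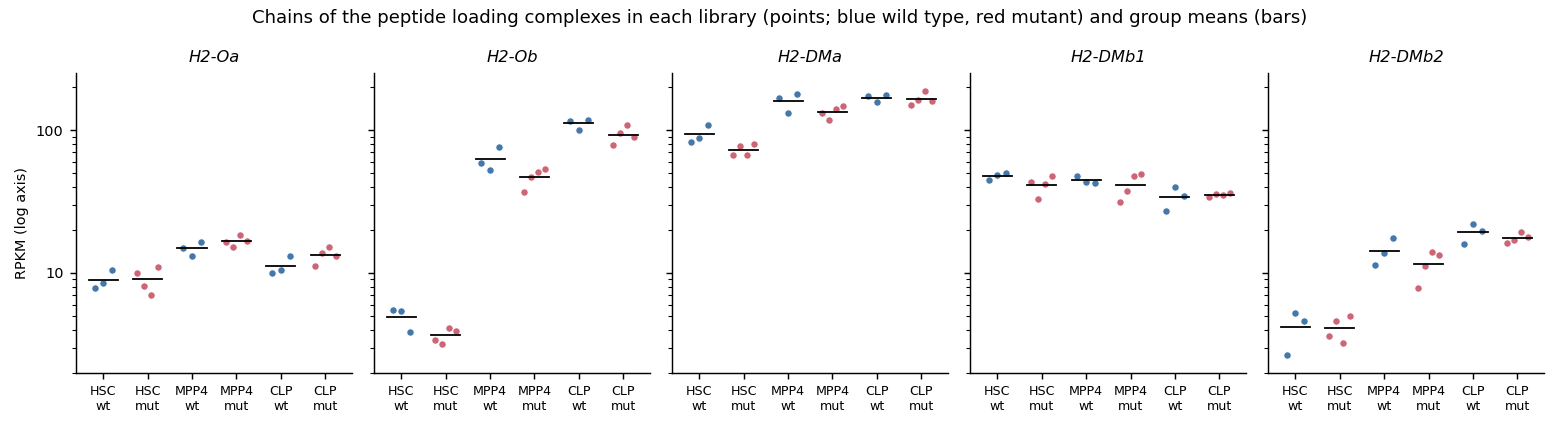
RPKM on a log axis of the H2-O chains (H2-Oa, H2-Ob) and the H2-M chains (H2-DMa, H2-DMb1, H2-DMb2) in each library; points are libraries, bars are group means. H2-Ob climbs from 4.89 to 112 RPKM between the wild-type HSC and CLP means while H2-Oa stays between 8.91 and 14.9, and H2-DMb2 climbs while H2-DMb1 does not.

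Ctss, the lysosomal protease cathepsin S (chromosome 3, 95526786 to 95556405), had the largest change of the 9 from HSC to MPP4 and to CLP in both genotypes. Wild-type libraries stood at 7.67, 9.45 and 11.5 RPKM in HSC, at 48.1, 39.9 and 48.4 in MPP4 and at 37.7, 66.2 and 78.5 in CLP. Mutant libraries stood at 8.33, 5.88, 15.8 and 12.7 in HSC, at 43.7, 35.3, 54.7 and 55.95 in MPP4 and at 56.2, 70.7, 66.8 and 68.5 in CLP. Every MPP4 and CLP library lay above every HSC library. Ctss was 4.45-fold higher in wild-type MPP4 than in HSC (2.15, SE 0.273, limma adjusted p = 2.74e-06) and 5.68-fold higher in CLP (2.50, adjusted p = 1.85e-07). In the mutant these rises were 4.32-fold and 6.01-fold (adjusted p = 4.94e-07 and 1.07e-08). MPP4 and CLP differed by 0.35 in wild type and 0.48 in the mutant (adjusted p = 0.486 and 0.156), the latter called with only the compared groups (adjusted p = 0.0352).

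Counted over the 9 members, 4 were called higher and 0 lower in wild-type MPP4 than in HSC: H2-Ab1, H2-DMa, H2-Oa and Ctss. Of all genes tested, 39.3% were called in this comparison and 16.1% were called higher. Against HSC, wild-type CLP had H2-DMa and Ctss higher and H2-DMb1 lower, 3 of 9 where 51.1% of all genes were called. From wild-type MPP4 to CLP 0 of 9 were called by limma, with 2 at an unadjusted p under 0.05, and 13.1% of all genes were called. In the mutant 6 of 9 were called higher in MPP4 than in HSC, where 39.1% of all genes were called and 16.0% higher. These were Cd74, H2-Ab1, H2-Eb1, H2-DMa, H2-Oa and Ctss, and the same 6 were called higher in mutant CLP than in HSC, where 57.8% were called and 21.8% higher. From mutant MPP4 to CLP 0 of 9 were called, with 3 at an unadjusted p under 0.05, against 24.3% of all genes. Over the 32 alternatives, 3 to 4 members were called in wild-type MPP4 against HSC and 2 to 4 in wild-type CLP against HSC. In the mutant these counts were 6 to 8 and 4 to 6. The median change of the 9 from HSC to MPP4 was 0.76 in wild type and 0.89 in the mutant, and that of all genes -0.06 and -0.05. These comparisons share their HSC and MPP4 libraries. From HSC to CLP the median of all genes was -0.10 in wild type and -0.11 in the mutant, and quantile normalization shifted it by 0.12 and 0.13 towards higher values in CLP.

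No member differed between genotypes by the test in any population. In HSC 0 of 9 were called against 0.0522% of all genes (6 genes), in MPP4 0 of 9 against 0.217% (25 genes) and in CLP 0 of 9 against 0% (0 genes, with 507 at an unadjusted p under 0.05). Of the 27 changes, 16 were positive. In HSC 2 of 9 were positive with a median of -0.27 on the log2 scale, and in MPP4 and CLP 7 of 9 were positive with medians of 0.16 and 0.14. The medians over all genes were 0.01, 0.02 and 0.00. None of the 27 was called under any alternative that gave it a value, and 14 took the opposite sign under at least 1.

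H2-DMa in HSC had the lowest unadjusted p of the 27. All 4 mutant HSC libraries, at 67.4 to 79.5 RPKM, lay below the 3 of wild type, at 83.0 to 109. The change was -0.35 (SE 0.114, unadjusted p = 0.0066, limma adjusted p = 0.818). Ciita was the other member whose genotypes did not overlap in HSC, at 0.774 to 1.30 RPKM in the mutant and 1.31 to 1.42 in wild type (-0.27, adjusted p = 1.00). In HSC 2 of 9 members and 5.25% of all genes did not overlap, in MPP4 0 of 9 and 10.1%, and in CLP 0 of 9 and 4.12%. H2-DMa in MPP4 overlapped, at 118 to 147 RPKM in the mutant and 131 to 180 in wild type (-0.23, adjusted p = 0.631).

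The intervals of the genotype change differed in width between members. For Cd74 they ran from -0.98 to 0.69 in HSC, from -0.43 to 1.24 in MPP4 and from -0.60 to 1.07 in CLP (95% intervals, log2 scale). For H2-Eb1 in MPP4 the interval was -0.62 to 1.33. For H2-DMa the intervals were narrower, -0.58 to -0.11, -0.47 to 0.00 and -0.27 to 0.20. Those of H2-Oa were -0.29 to 0.30, -0.14 to 0.45 and -0.06 to 0.53. A log2 change of 1 lay inside the MPP4 intervals of Cd74 and H2-Eb1, and outside those of H2-DMa and H2-Oa in every population.

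**Figure D3:**
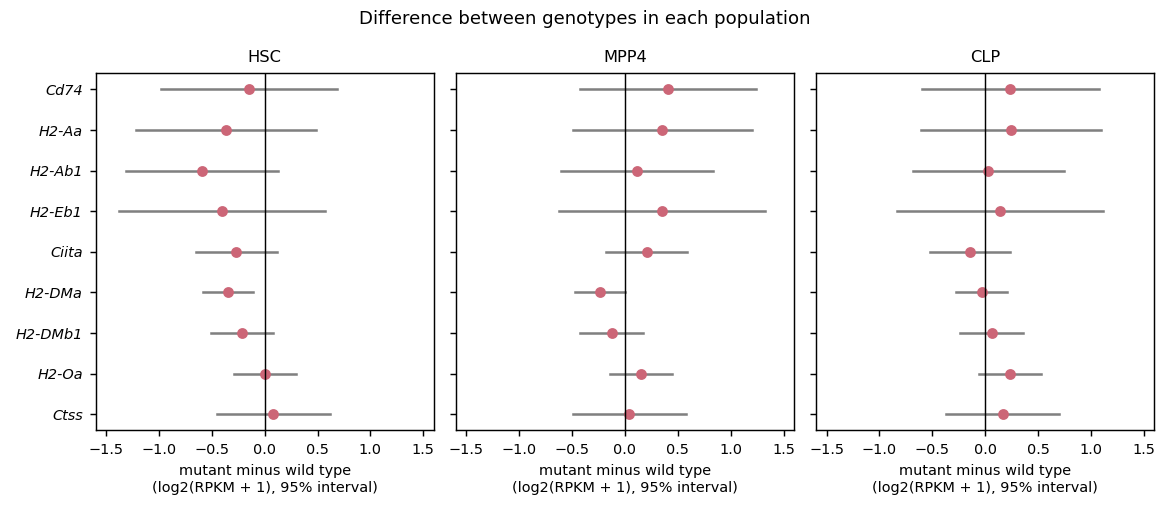
Mutant minus wild-type difference in mean log2(RPKM + 1) for each of the 9 genes (rows) in HSC, MPP4 and CLP (panels), with 95% intervals from limma as grey lines. All intervals but that of H2-DMa in HSC include 0, and those of Cd74, H2-Aa, H2-Ab1 and H2-Eb1 are the widest.

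The genotype change itself was compared between populations with interaction terms. MPP4 against HSC had 0 of 9 members called and 0% of all genes, CLP against MPP4 0 of 9 and 0%, and CLP against HSC 0 of 9 and 0.0087% (1 gene). The genotype change of H2-Ab1 was 0.70 higher in MPP4 than in HSC (95% interval -0.31 to 1.72, limma adjusted p = 1.00). Among the 27 interaction terms, the lowest unadjusted p was 0.068, for H2-DMa in CLP against HSC (0.31, interval -0.03 to 0.65).

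Within groups, Cd74, H2-Aa, H2-Ab1 and H2-Eb1 varied from library to library far more than most genes of their level. Their within-group SD was 0.59, 0.60, 0.51 and 0.69 log2 units (15 degrees of freedom). For Cd74 this was above that of 99.4% of the 346 genes within 0.5 log2 units of its mean, whose median was 0.13. H2-Aa, H2-Ab1 and H2-Eb1 lay above 99.2%, 99.0% and 99.3% of the genes around their own levels. Ctss followed at 0.37 (97.2%), and H2-DMb1 at 0.20 (82.1%), H2-Oa at 0.19 (61.1%), H2-DMa at 0.16 (67.1%) and Ciita at 0.24 (35.7%) lay nearer the middle. Between the highest and lowest library of a group, H2-Eb1 ranged 1.78-fold to 4.18-fold and H2-DMa 1.11-fold to 1.37-fold.

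The 4 genes rose and fell together. Each library's difference from its group mean was compared between genes over the 21 libraries. These correlations are descriptions: the libraries share 6 fitted group means, and 1 mouse may have given up to 3 of them. Among Cd74, H2-Aa, H2-Ab1 and H2-Eb1 the 6 Pearson correlations were 0.903 to 0.978, and Spearman's rho was 0.882 to 0.971. Without the 2 libraries farthest from the median of the first gene, r was 0.884 to 0.978. Within populations, over 7 libraries each, r was 0.699 to 0.947 in HSC, 0.994 to 0.998 in MPP4 and 0.959 to 0.983 in CLP.

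Over the 21 libraries, the other members divided into those that followed the 4 and those that did not. Ciita followed at r = 0.688 to 0.789 (rho 0.588 to 0.718), with 0.298 to 0.557 within HSC, 0.791 to 0.844 within MPP4 and 0.892 to 0.976 within CLP. H2-DMb1 correlated at 0.618 to 0.704, with 0.095 to 0.466 within HSC, 0.788 to 0.825 within MPP4 and 0.700 to 0.823 within CLP. Ctss correlated at 0.401 to 0.554, with 0.220 to 0.596, 0.662 to 0.734 and 0.416 to 0.525. H2-DMa (0.076 to 0.141) and H2-Oa (0.032 to 0.094) did not follow, but correlated with each other at 0.683 (rho 0.695, and 0.627 without the 2 farthest libraries). Within HSC, MPP4 and CLP, H2-DMa gave 0.229 to 0.530, 0.173 to 0.264 and -0.457 to -0.235 with the 4. Its value over all libraries thus pools unlike signs. H2-Oa gave -0.051 to 0.264, 0.073 to 0.165 and -0.128 to 0.062. Within HSC the range of H2-DMa overlapped those of Ciita, H2-DMb1 and Ctss, so the division did not hold there. Of the promoters shown above, those of H2-Aa and H2-Eb1 belong to genes that moved together. That of H2-DMb1 belongs to a gene that followed them less closely in each population, least within HSC. Those of H2-Oa and H2-Ob belong to genes that did not follow them over all libraries. The r of H2-Ob with the mean of the 4 was 0.04. Of genes with no match of the arrangement, H2-DMb2 gave 0.44, Ctss 0.48 and H2-DMa 0.11. The part of the boxes in these correlations was not tested.

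**Figure D4:**
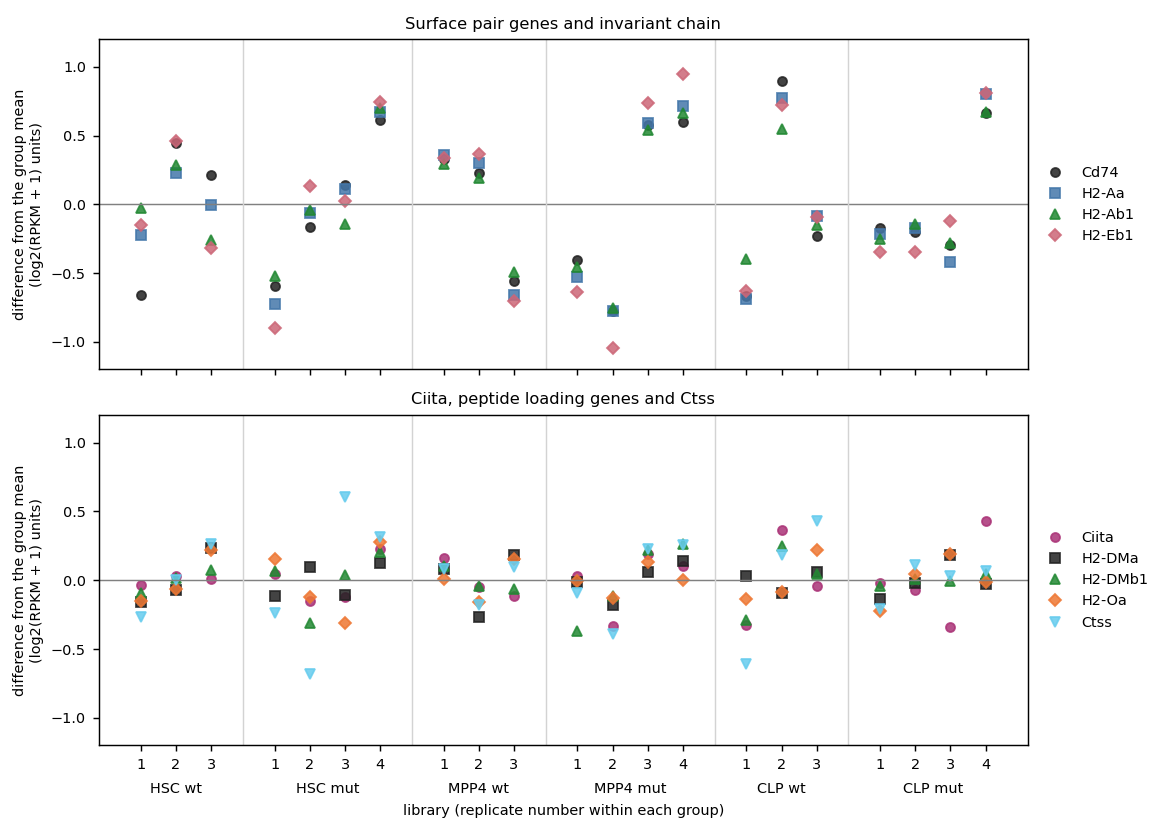
Difference of each library from its group mean in log2(RPKM + 1) units (vertical axis) for the 21 libraries by group and number (horizontal axis). The 4 genes of the upper panel sit together, with a mean of 0.68, 0.73 and 0.74 in library 4 of mutant HSC, MPP4 and CLP, while the genes of the lower panel lie nearer 0 and Ctss spreads most among them.

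The libraries high in the 4 genes were not of 1 sex or age. As a mean difference from the group, the highest libraries were number 2 of wild-type HSC (0.36), number 4 of mutant HSC (0.68), number 1 of wild-type MPP4 (0.33), number 4 of mutant MPP4 (0.73), number 2 of wild-type CLP (0.74) and number 4 of mutant CLP (0.74). Number 4 was thus the highest mutant library in all 3 populations; it is labelled female, at 12 weeks in HSC and MPP4 and at 10 weeks in CLP. The high wild-type library of HSC and of CLP is labelled male. In mutant MPP4, libraries 3 and 4 were high (0.61 and 0.73) and libraries 1 and 2 low (-0.51 and -0.84).

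Levels of markers of cells that carry class II were set beside these differences. The summed levels of 8 marker lists correlated with the mean of the 4 genes, as differences from group means, at -0.23 (innate lymphoid cells) to 0.28 (monocytes and macrophages). Conventional dendritic cells gave 0.19, plasmacytoid dendritic cells -0.20, mature B cells 0.11, stem cells 0.19, early lymphoid genes -0.05 and the genes of the sorting gates 0.01. The dendritic list had 4 of 8 markers in the table, with a sum of 1.25 to 2.81 RPKM in HSC, 16.6 to 23.7 in MPP4 and 34.9 to 58.6 in CLP. Ccr7 and Clec10a of that list were at 0 in some libraries. The B cell list had 4 of 9 markers, at 34.4 to 48.8, 39.4 to 54.8 and 71.7 to 196 RPKM, and the plasmacytoid list 7 of 8, at 92.6 to 124, 122 to 197 and 427 to 634. The monocyte and macrophage list had 6 of 9, at 325 to 604, 277 to 502 and 158 to 533. The single markers with the highest r were Ccr2, a chemokine receptor of monocytes (r = 0.68), and Zbtb46, a transcription factor of conventional dendritic cells (0.60, at 0.302 to 2.15 RPKM). The rest of their lists lay lower. Other dendritic markers ran from -0.22 (Ccr7) through 0.03 (Itgax) to 0.38 (Clec10a). Other monocyte and macrophage markers ran from 0.07 (Cx3cr1) to 0.44 (Ly6c2). The part of such cells in the differences between libraries was not tested.

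Genes with a pattern most like the mean of the 4 were ranked among 9741 non-members that reached 5 RPKM in some group. Over the 21 libraries, 4 of the 5 highest Pearson correlations were those of Plbd1 (0.858), Naaa (0.840), Man2b1 (0.809) and Lgals3 (0.802). Naaa is a lysosomal amidase, Man2b1 a lysosomal mannosidase and Lgals3 a galactose-binding lectin. For differences from group means the 5 highest were Plbd1 (0.801), Prkag1 (0.789), Naaa (0.778), Mnat1 (0.778) and Fam46a (0.752). Prkag1 encodes a subunit of AMP-activated kinase and Mnat1 an assembly factor of the CDK-activating kinase. Plbd1 stood at 3.06 ± 2.10, 8.80 ± 4.87 and 8.003 ± 3.91 RPKM in wild-type HSC, MPP4 and CLP (SD, n = 3 each), and at 3.25 ± 0.955, 16.1 ± 7.82 and 12.9 ± 7.56 in the mutant (n = 4 each). These genes were picked for the correlation, which is therefore no evidence of a relation.

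Other genes of the pathway were read from 5 lists, of which 31 genes were tested. From HSC to MPP4 in wild type 11 were called higher and 8 lower, from MPP4 to CLP 6 higher and 1 lower, and from HSC to CLP 13 higher and 7 lower. In the mutant these counts were 9 and 7, 7 and 6, and 14 and 9. Over all genes 39.3%, 13.1% and 51.1% were called in wild type and 39.1%, 24.3% and 57.8% in the mutant. Their median changes were 0.12, 0.04 and 0.17 in wild type, beside -0.06, -0.05 and -0.10 over all genes. Of the 3 further class II genes tested, H2-Eb2 joined H2-Ob and H2-DMb2 as higher in wild-type CLP than in HSC, at 3.16 ± 0.603 against 0.211 ± 0.0944 RPKM (1.77, limma adjusted p = 6.5e-07).

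Of 7 genes for proteins that assemble on the boxes, 1 rose and 3 fell from HSC to MPP4 in wild type, where 39.3% of all genes were called and 16.1% higher, and 3 rose and 2 fell from HSC to CLP. Rfx5, a DNA-binding subunit of RFX, fell by 0.55 to MPP4 and by 0.69 to CLP on the log2 scale (limma adjusted p = 0.000386 and 1.73e-05), and its partner Rfxap fell by 0.52 and 0.77 (adjusted p = 0.00405 and 6.61e-05). Nfya, a subunit of NF-Y, rose by 0.79 to CLP (adjusted p = 0.0014), and Nfyb by 0.39 to MPP4 (adjusted p = 0.0102). As differences from group means, r of Rfx5 with the mean of Cd74, H2-Aa, H2-Ab1 and H2-Eb1 was 0.02.

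Of 9 genes of the interferon gamma route and the lineage factors of Ciita, 5 rose and 3 fell from HSC to MPP4 in wild type, where 39.3% of all genes were called and 16.1% higher. Irf8, a factor of myeloid, dendritic and early B cells, stood at 2.24 ± 0.332, 48.8 ± 2.46 and 178 ± 38.7 RPKM in wild-type HSC, MPP4 and CLP (limma adjusted p = 2.61e-13 for MPP4 against HSC). Spi1, which encodes PU.1, rose by 0.88 to MPP4 (adjusted p = 2.65e-07) and fell by 0.58 from there to CLP (adjusted p = 0.000204). Irf4 rose by 1.11 from MPP4 to CLP (adjusted p = 0.000443), Ifngr2, a receptor chain for interferon gamma, rose by 0.88 to MPP4 (adjusted p = 0.00512), and Jak2, a kinase of that receptor, fell by 1.24 from HSC to CLP (adjusted p = 2.68e-05). Irf8 was the single gene of the 31 called between genotypes, in MPP4, at 28.2 ± 4.89 RPKM in the mutant (n = 4). The stem cell and early lymphoid marker sums of these MPP4 libraries also did not overlap between genotypes, and their part in this difference was not tested. Its change was -0.79 (adjusted p = 0.0364). In the same comparison Ciita differed by 0.21 (adjusted p = 0.865). With a pseudocount of 0.1 RPKM, 0 genes of the table were called in that comparison.

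Among 10 lysosomal genes, 3 rose and 1 fell from HSC to MPP4 in wild type and 3 rose and 2 fell from HSC to CLP. These 4 and 5 of 10 stand near the 39.3% and 51.1% of all genes called. Lgmn, the asparaginyl endopeptidase, rose by 1.67 to MPP4 and by 2.67 to CLP (limma adjusted p = 2.72e-05 and 2.87e-08), from 1.90 ± 0.556 RPKM in HSC to 17.3 ± 2.04 in CLP. Ctsl, the protease that cuts the invariant chain in thymic epithelium, fell by 1.49 and 0.97 (adjusted p = 2.44e-05 and 0.00125), opposite in direction to Ctss. Cst3, the secreted inhibitor cystatin C, rose by 0.57 and 0.58 (adjusted p = 0.00904 and 0.00625) and followed the 4 genes between libraries (r = 0.70), as did the protease gene Ctsh (0.61). Ctsb rose by 0.71 from MPP4 to CLP (adjusted p = 0.000434).

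Of 6 genes of surface turnover and co-stimulation, 2 were tested, Cd86 and Marchf8. Marchf8, a ubiquitin ligase of the family that sends class II molecules to degradation, fell by 0.99 from HSC to MPP4 and by 1.53 to CLP in wild type (limma adjusted p = 0.000307 and 1.04e-06). Marchf8 stood at 5.13 ± 0.338 RPKM in wild-type MPP4 and 9.001 ± 1.08 in the mutant, without overlap (0.70, adjusted p = 0.147). In MPP4 10.1% of all genes did not overlap between genotypes. Of the other pathway genes, Rfx5 and Nfya (mutant above) and Irf8 (mutant below) did not overlap there either. In HSC, Irf4 (mutant above) and Irf8 (mutant below) did not overlap, as did 5.25% of all genes not. Irf8 was at 0.761 to 1.55 RPKM in mutant HSC and 1.91 to 2.57 in wild type. In CLP, H2-Eb2 (mutant below) and 4.12% of all genes did not overlap. None of the pathway genes was called between genotypes in HSC or CLP. H2-Ea-ps, Pax5, Prdm1, Marchf1, Cd83, Cd80 and Cd40 were not found by name among the 11628 deposited genes and so were not tested.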

How the data were processed

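RNA of 21 sorted bone marrow libraries (polyA RNA, SMART-seq v4 cDNA, NexteraXT) was sequenced by the authors, who deposited 1 table of RPKM values for 11628 genes. The reads were aligned with STAR to mm10, per the submitters' processing notes; the counting tool, annotation and use of strand are not stated there. RPKM keeps no read totals, so depth is unknown and no counting error can be given. Symbols turned into dates were restored for 16 genes, and 11619 Entrez IDs matched RefSeq.

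Values were taken as log2(RPKM + 1), and genes at 1 RPKM or more in at least 3 libraries were kept (11496, with 132 removed). A limma 3.58.1 trend fit (R 4.3.3) of 6 group means over all 21 libraries gave 12 comparisons, with p-values adjusted within each by Benjamini-Hochberg. On simulated data for mutant minus wild type in CLP over 11496 genes, it recovered 95 of 100 genes changed by 1 log2 unit and 98 of 100 changed by 2, with 14 false calls. The changed genes were drawn at random from those with a mean log2 value above 3, with independent noise at each gene's own spread. Ciita lay below that level. Cd74, H2-Aa, H2-Ab1 and H2-Eb1 spread far more than most genes (SD 0.51 to 0.69). The recovery therefore does not carry over to these members. In total 32 alternatives were run. Same-numbered libraries of different populations correlated, as differences from group means, at 0.094 to 0.481 in 21 pairs, and in 17 of these the r was above that of the first library with any other number of the second population. Every pair was above 0.1 in 4 of 6 population comparisons, and there the numbers were taken to pair the libraries, a reading by comparison that was chosen after the calls were seen. Mutant library 4 has unlike age labels across populations. Values with the number as a block are given where they change a call. As a term, each number had 1 effect shared by both genotypes, though their mice differ. By mouse, the numbers of each genotype were kept apart, with 1 correlation (0.21) fitted over all 21 libraries. Both blocks therefore used the numbers in every comparison, mutant number 4 included, also where not every pair was above 0.1.

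The members and lists were chosen with earlier results of these data known. Every member is described. Of the 5 pathway lists, genes called between genotypes and the 3 called genes of each list with the largest wild-type change are named. As like genes, the 5 with the highest correlation by each measure were taken, of which 1 is not reported here. Ctsh, Ccr2, Zbtb46 and the genotype values of Marchf8 were chosen after their values were seen, as were the promoter motifs.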

Additional observations from a re-analysis of the deposited data

Results flagged for a closer look

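In 33 sets of 4 libraries (a gene in a mutant group), the gap between the most extreme library and its nearest neighbour was set against the whole range on the log2 scale. The ratio passed Dixon's 95% critical value for 4 samples in 2, and chance gives about 1 in 20. Cd74 in mutant CLP library 4 (278 RPKM, the others 142 to 155) had a ratio of 0.875. H2-Ab1 in the same library (158 RPKM, the others 81.3 to 89.4) had 0.859.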

How the results depend on the processing

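Of 29 single-gene results, 19 were called, and 15 of these kept direction and call under every alternative run. Ciita in CLP minus HSC of the mutant (-0.01, not called) took the opposite sign with quantile normalization (0.58), median-ratio scaling (0.0491) and library weights (0.0006), and ranged from -0.15 to 0.11 with 1 library left out. Its cause was not tested. From MPP4 to CLP in wild type, the members called went from 0 to 1 with library weights. In the mutant they went from 0 to 1 with the filter at 5 RPKM, median-ratio scaling, a sex term or the replicate block with the number as a term, and to 2 with the replicate block by mouse or with only the groups compared. Leaving out 1 library gave 0 to 1. Both scalings raised the share of calls that were higher, for CLP minus HSC in wild type from 37.9% to 51.3% (quantile) and 48.6% (median-ratio), and in the mutant from 37.7% to 49.9% and 48.8%. For CLP minus MPP4 in the mutant it went from 32.4% to 46.3% and 46.0%.

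Beside the values given with the results, the replicate block called H2-DMa in CLP minus MPP4 of the mutant (0.29, adjusted p = 0.0237 with the number as a term and 0.0216 by mouse) and, by mouse, Ciita there (-0.42, adjusted p = 0.0436). The pairing rule was not met in that comparison. The block changed no other call of a member, and no genotype change or interaction of a member was called with it. Depth is unknown, so what it limits cannot be given.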
